A study of Homo sapiens with 2 samples.

Results

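The genes described are 7 that encode aminoacyl-tRNA synthetases: IARS, EPRS, LARS, RARS, TARS, NARS and IARS2. They were read through the positions at which chromatin immunoprecipitation (ChIP) for LSD2 gave more reads than input in HepG2 cells, a line derived from a human liver tumour. A peak was counted in a gene where its midpoint lay inside the gene's hg19 interval, and 185 of the 370863 distinct peaks did so. The genes were selected on the number and density of these same peaks, so every count, density and width below is a description and none is tested. The data comprised 1 LSD2 ChIP library, pulled down with rabbit polyclonal antibodies to recombinant LSD2 (residues 26 to 822), and 1 input library of sonicated chromatin without antibody. Both came from cells kept in medium with 25 mM glucose, 10% heat-inactivated serum and antibiotics. The deposited list gives peak positions without height or p-value, and read depth is unknown here, so no value can be set against replicate error and peaks cannot be ranked by strength.

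Aminoacyl-tRNA synthetases join each amino acid to its matching transfer RNA and so supply the ribosome with charged tRNA. They fall into class I and class II by the fold of the catalytic domain. In animal cells several of the cytosolic enzymes, among them those of IARS, EPRS, LARS and RARS, sit together in the multi-tRNA synthetase complex, while the threonyl and asparaginyl enzymes of TARS and NARS work outside it and IARS2 serves mitochondria. LSD2, the product of KDM1B, removes methyl groups from lysine 4 of histone H3 and has been described in the bodies of transcribed genes. The expression of the 7 genes was not measured in these data.

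All 7 genes held more peaks per Mb than either of their 200 kb flanks, but by very different margins. Against the 200 kb before the start, IARS2 was 1.03 times as dense (0.59 to 1.71) and TARS 5.58 times (2.49 to 12.2). The share of windows denser than both flanks was not computed, and the genes were selected on density. Pooled, the genes had 185 peaks in 367 kb, or 504 peaks per Mb. Their flanks, with overlapping flanks counted once and the genes themselves removed, had 389 peaks in 2447 kb, or 159 per Mb. The ratio was 3.17 (exact 95% interval 2.65 to 3.79, for counting error only). IARS and EPRS contributed 109 of the 185 peaks, and the ratio was 2.85 (2.30 to 3.52) without IARS and 2.94 (2.40 to 3.58) without EPRS. Over the whole searched sequence there were 130 peaks per Mb. Neighbouring peaks are not independent, so the intervals are too narrow. Neither the copy number of these regions nor the read depth was measured, and their part in the densities and widths was not tested.

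Counted gene by gene, 5 of the 7 reached at least 1.5 times the density of their own flanks, namely IARS, EPRS, RARS, TARS and NARS. Of 50 kb windows tiled over the genome, 16.8% reached that ratio. The interval of the ratio lay above 1 in 4 of these, since that of NARS, with 6 peaks, included 1, and so it did in 4% of windows. Among peaks at least as wide as the genome median it lay above 1 in NARS too. All 7 genes had at least 2 times the genome's density, which 7.99% of 50 kb windows had. RARS, TARS and NARS are shorter than 50 kb, and shares past these thresholds were not computed for shorter windows. Of 20 kb windows, 2.54% had a ratio to their flanks of at least that of RARS, 0.108% that of TARS and 5.36% that of NARS. The members were proposed on this same list, so these counts are set beside the shares only for scale.

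**Figure D1:**
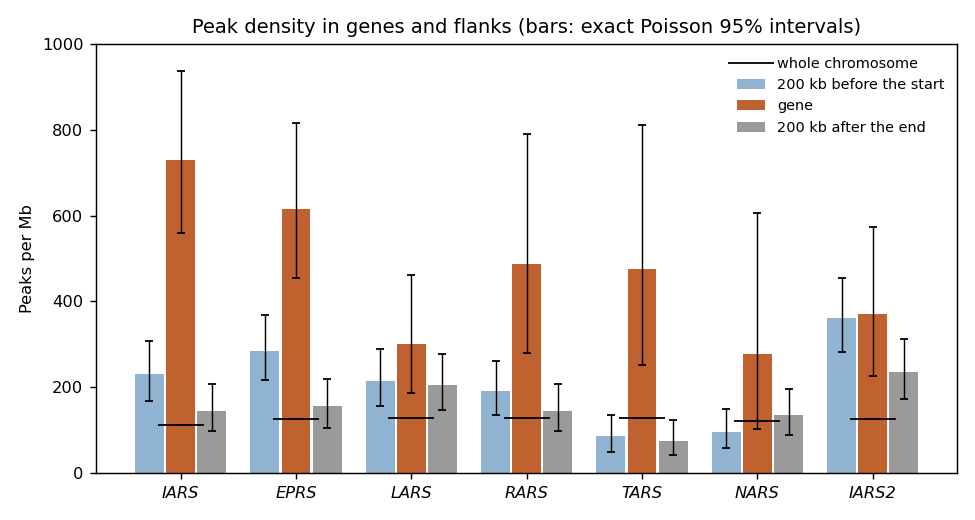
Peaks per Mb in each gene (orange), in the 200 kb before its start (blue) and in the 200 kb after its end (grey), with exact Poisson 95% intervals for counting error and the density of the whole chromosome as a black line. The orange bar runs from 278 in NARS to 730 in IARS and is the highest of the 3 in every gene, although in IARS2 it is nearly level with the blue bar (371 against 360).

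IARS, which encodes the cytosolic isoleucyl enzyme, was the densest member. Its interval at chr9:94972489-95056038 (hg19, minus strand, 83.55 kb) held 61 peaks, or 730 per Mb (exact Poisson 95% interval 558 to 938), 1 for every 1.37 kb. The 200 kb before its start held 46 peaks (230 per Mb) and the 200 kb after its end held 29 (145 per Mb), which made the gene 3.89 times as dense as its flanks (2.73 to 5.53). Of 50 kb windows, 0.0123% were at least as dense, but the gene was selected for its density. The windows compared also include sequence of the gene itself. Peaks covered 25.5% of the gene against 4.88% of its flanks. An unbroken run of 18 peaks, each within 2 kb of the next, spanned 18.7 kb from 95008305 to 95026972 and lay wholly inside the gene. The widest peak of the gene, at chr9:95013972-95014908 (937 bp), belonged to that run and lay 41.6 kb from the gene's start.

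EPRS, whose product joins both glutamate and proline to their tRNAs and so combines a class I and a class II enzyme, followed. Its interval at chr1:220141942-220220000 (minus strand, 78.1 kb) held 48 peaks, or 615 per Mb (453 to 815). The ratio to its flanks was 2.80 (1.92 to 4.02), with 285 peaks per Mb before the start and 155 after the end. The stretch before the start contains IARS2, and without IARS2 in the flanks the ratio was 3.13 (2.12 to 4.60). A run of 14 peaks covered 15.8 kb from 220147749 to 220163564, toward the end of the gene. That run held the widest peak of the gene, 846 bp at chr1:220161418-220162263.

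LARS and RARS, the other complex members in the set, differed from each other. LARS encodes the cytosolic leucyl enzyme, which is also known as a leucine sensor for mTORC1 signalling. Its interval at chr5:145492601-145562223 (minus strand, 69.6 kb) held 21 peaks, or 302 per Mb (187 to 461), against 215 before and 205 after it. The ratio of 1.44 had an interval of 0.85 to 2.34, which includes 1, and 18.99% of 50 kb windows stood out from their flanks by as much. RARS encodes the arginyl enzyme. Its interval at chr5:167913463-167946304 (plus strand, 32.8 kb) held 16 peaks, or 487 per Mb (278 to 791), and was 2.91 times as dense as its flanks (1.57 to 5.07), or 4.87 times (2.42 to 9.29) among peaks at least as wide as the genome median. The widest peak of LARS, 738 bp at chr5:145532194-145532931, lay 29.7 kb from its start.

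TARS and NARS encode class II enzymes outside the complex. TARS lay in surroundings with few peaks. Its interval at chr5:33440802-33468196 (plus strand, 27.4 kb) held 13 peaks, or 475 per Mb (253 to 811). The flanks held 17 and 15 peaks, or 85 and 75 per Mb, below the 127 per Mb of chromosome 5 as a whole. The ratio of TARS to its flanks was 5.93 (2.86 to 11.6), the highest of the 7, whereas IARS, EPRS and RARS were denser. The NARS interval at chr18:55267888-55289445 (minus strand, 21.6 kb) held 6 peaks, or 278 per Mb (102 to 606), which was 2.42 times its flanks (0.84 to 5.68). Its flanks, with 95 peaks per Mb before the start and 135 after the end, were close to the 122 per Mb of chromosome 18. The NARS ratio depended on the peaks counted, at 1.55 (0.55 to 3.53) with every deposited line counted and 4.45 (1.49 to 11.1) among peaks at least as wide as the genome median.

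The 6 peaks of NARS are few enough for each to be named. In the direction of transcription the first was 354 bp wide at chr18:55281024-55281377 and the next, the widest, was 567 bp at chr18:55279703-55280269. A peak of 240 bp followed at chr18:55278026-55278265. The last 3 formed a tight group of 396, 224 and 377 bp between 55273219 and 55275151, a stretch of 1.93 kb. All 6 midpoints lay between 8244 and 16038 bp from the start, and the last 5519 bp of the gene also held none.

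IARS2, which encodes the mitochondrial isoleucyl enzyme, is the neighbour of EPRS on chromosome 1 and differed from the other genes in its surroundings. Its interval at chr1:220267444-220321380 (plus strand, 53.9 kb) held 20 peaks, or 371 per Mb (226 to 573). The 200 kb before its start held 72 peaks, or 360 per Mb, and those 200 kb contain EPRS, which lies 47.4 kb away and is transcribed in the opposite direction. The stretch between the genes, which holds BPNT1 in the RefSeq gene table (GRCh38.p14), had 7 peaks (148 per Mb) with a median width of 167 bp. The ratio of IARS2 to its flanks was 1.25 (0.73 to 2.01) with EPRS counted in them and 1.68 without it. Of 50 kb windows, 28.6% had a ratio to their flanks of at least the value with EPRS counted. Compared with chromosome 1 (125 peaks per Mb), IARS2 was 2.96 times and EPRS 4.91 times as dense.

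The density order was IARS, EPRS, RARS, TARS, IARS2, LARS and NARS. Each gene's interval overlapped that of its neighbour in this order, so no adjacent pair was separated by more than counting error, whereas the interval of IARS lay above that of LARS. The 4 genes of complex members had 553 peaks per Mb together and the 3 others 379, and both sets stood at a similar ratio to their flanks, 2.91 (2.37 to 3.56) and 2.85 (1.95 to 4.08). Relative to their own chromosomes, the genes ran from 2.29 times in NARS to 6.49 times in IARS. The flanks ran from 0.63 times in TARS to 2.38 times in IARS2.

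**Figure D2:**
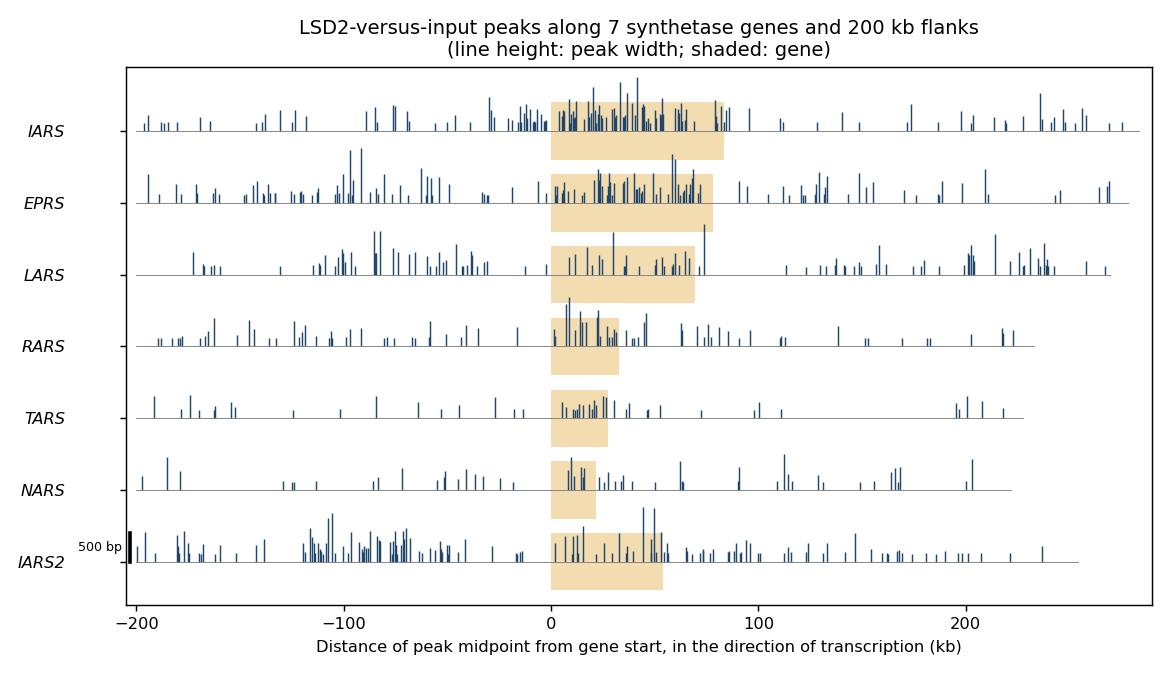
Each line is a peak, placed by the distance of its midpoint from the gene start in the direction of transcription (kb), with a height in proportion to its width (scale bar 500 bp), and the gene is shaded. Lines crowd in the shaded part of IARS, EPRS, RARS and TARS and are sparse around TARS, while the dense block to the left of IARS2 is EPRS.

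Peaks inside the genes were also wider than those around them. Pooled, the median width was 296 bp in the genes (order-statistic 95% interval 271 to 328) and 188 bp in the flanks (171 to 221), against 173 bp over all peaks. Peaks of at least 400 bp made up 25.9% of those in the genes, 10.3% of those in the flanks and 7.89% of the whole list. Peaks under 170 bp, which formed 48.2% of the whole list, made up 20% in the genes and 43.2% in the flanks.

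The gene's median was above the median of its 2 flanks pooled in all 7, and also above that of each flank. Of 50 kb windows with at least 6 peaks, 52.1% had a median above that of their pooled flanks. The share of windows above each flank separately was not computed. In IARS the widths ran from 138 to 937 bp with a median of 302 bp, against 226 bp in its flanks. In EPRS they ran from 137 to 846 bp, and the median was 290.5 bp where its flanks had 203.5 bp. The difference in EPRS depended on the flank, since the 200 kb after its end had a median of 278 bp, those before its start 182 bp, and with flanks of 100 kb the gene was 21 bp above them in place of 87 bp. RARS had a median of 332 bp against 180 bp, and 7 of its 16 peaks reached 400 bp. IARS2 held the widest peak of the set, 958 bp at chr1:220311161-220312118, and its peaks were spread between short and wide, with 7 of 20 under 170 bp and 8 of at least 400 bp. LARS was similar in its short peaks, with 8 of 21 under 170 bp, and had a median of 271 bp against 209 bp. TARS stood apart from the others in width. Its widest peak was 382 bp, at chr5:33465593-33465974, none reached 400 bp in the gene or in its flanks, and its median was 231 bp against 181.5 bp. NARS had no peak under 170 bp, and its median was 365.5 bp against 195 bp.

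**Figure D3:**
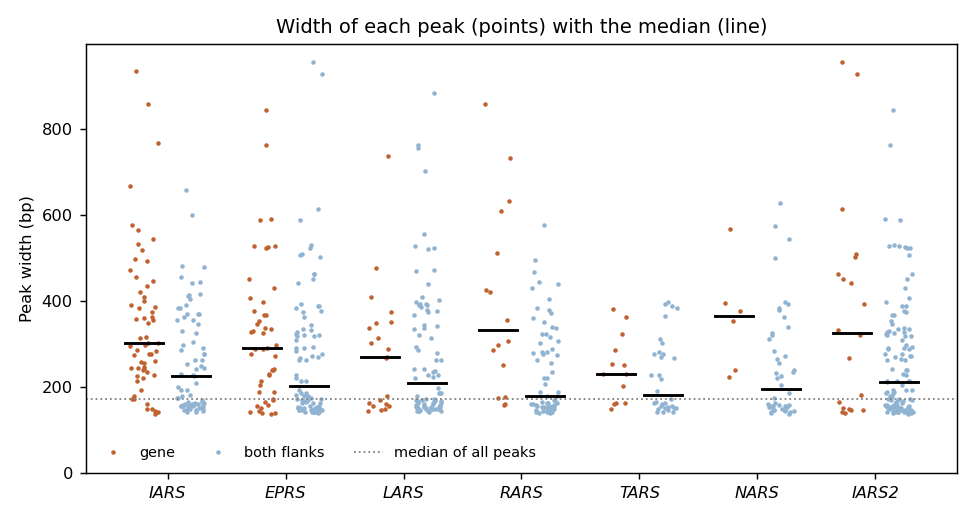
Width in bp of each peak in the 7 genes (orange) and in both 200 kb flanks together (blue), with the median as a black line and the median of all peaks, 173 bp, dotted. The orange line is above the blue line in each gene, the flanks keep a dense band of points near the dotted line, and TARS is the gene without a point above 382 bp.

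No peak midpoint lay close to a gene start. The midpoint nearest to the start was 1.58 kb away in RARS, 1.74 kb in IARS2, 1.76 kb in EPRS, 2.23 kb in IARS and 2.40 kb in LARS, and it was 5.41 kb away in TARS and 8.24 kb in NARS. These peaks lay inside the gene at chr5:167914894-167915191 in RARS, chr1:220269022-220269354 in IARS2, chr1:220218091-220218389 in EPRS and chr5:33446071-33446356 in TARS, as in NARS. They lay before the start, at chr9:95058171-95058369 in IARS and chr5:145564528-145564712 in LARS. All 7 starts thus lay over 1.5 kb from a midpoint, as do 68.8% of all searched bases, so such a distance is common over the genome. Inside the genes it was less common, since 14.6% of bases in RARS, 14.7% in EPRS, 16.4% in IARS, 17.2% in TARS and 19.8% in IARS2 were as far from a midpoint. LARS, with 36.3%, and NARS, with 50.5%, had more such bases.

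The peak-free gap that contained the start was wider than the median gap between peaks inside the gene in all 7. In IARS this gap was 5725 bp and the median inner gap 526 bp, and in EPRS they were 4114 and 757 bp. In RARS the gap at the start was 17515 bp against 795 bp inside, and no inner gap of RARS, TARS, NARS, LARS or IARS2 was as wide as the gap at its start. A gap that contains a chosen position is wider than a typical one by construction, and over the genome the median base between peaks lay in a gap of 14403 bp. At the ends of the genes the pattern was less even. The end of IARS fell inside a peak of 161 bp whose midpoint was 2 bp inside the interval, the gap at the end of IARS2 was 1353 bp, and that at the end of EPRS was 18379 bp.

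Sequences at RefSeq starts of these genes are shown because no midpoint lay within 1.5 kb of any hg19 start above. The RefSeq starts, in another build, were not matched to those hg19 starts and may differ from them. RefSeq's promoter table (GRCh38.p14, from 250 bases before to 50 after a start) held 7 starts for 6 of the members, with TARS1 given at 2 starts. Their G and C content ran from 57.7% to 65.3%, against a median of 58.7% over all 35116 promoters in the table. They held from 19 to 36 CG dinucleotides, against a median of 14. The 250 bases before the start of IARS1, the gene with the most peaks, and of TARS1, the gene with the highest ratio to its flanks, are given 5′ to 3′ with each CG in capitals. They lie at chr9:92293698-92293947 on the minus strand and at chr5:33440715-33440964 on the plus strand of GRCh38.p14. The TARS1 stretch is the one before the downstream of its 2 starts.
IARS1: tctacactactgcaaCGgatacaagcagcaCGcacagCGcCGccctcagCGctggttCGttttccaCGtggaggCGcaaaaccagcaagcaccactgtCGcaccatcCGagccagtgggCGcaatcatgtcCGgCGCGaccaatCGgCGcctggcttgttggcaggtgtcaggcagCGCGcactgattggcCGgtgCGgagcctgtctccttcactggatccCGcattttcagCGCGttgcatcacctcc
TARS1: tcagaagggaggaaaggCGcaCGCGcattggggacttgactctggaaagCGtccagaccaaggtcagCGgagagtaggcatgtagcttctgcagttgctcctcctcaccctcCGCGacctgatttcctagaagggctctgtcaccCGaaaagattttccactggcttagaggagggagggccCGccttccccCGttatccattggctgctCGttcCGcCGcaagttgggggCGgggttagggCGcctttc

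Synthetase genes are known targets of ATF4, the transcription factor of the amino acid response, which with C/EBP partners binds elements of the form TGATGNAA. That motif was searched on both strands (TGATGNAA and TTNCATCA). It was found at the starts of IARS1, TARS1 (at 1 of its 2 starts) and NARS1, and not at those of EPRS1, IARS2 and RARS1, while 3.62% of all promoters in the table hold it. The 3 matches had the same 8 letters, TGATGCAA, read on the minus strand relative to the gene in IARS1 and TARS1. They are shown in capitals within 30 bases at chr9:92293692-92293721 (minus), chr5:33440956-33440985 (plus) and chr18:57621804-57621833 (minus) of GRCh38.p14.
IARS1: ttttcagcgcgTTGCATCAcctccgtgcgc
TARS1: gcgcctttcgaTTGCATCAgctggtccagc
NARS1: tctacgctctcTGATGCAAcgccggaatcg
The motif begins 13 bases before the start in IARS1, and at base 3 in TARS1 and base 15 in NARS1, counted from 1 at the start. Of 33 further synthetase and complex scaffold genes, 27 had a promoter in the table, and 5 of them held the motif: AARS1, CARS1, GARS1, MARS1 and YARS2. A gene was counted if any of its starts held the motif, whereas the 3.62% is a share of single promoters. The match is a feature of the letters only, and the peak list says nothing about ATF4. These further genes were not placed on the peaks, since their hg19 positions were not used here.

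The first 5 kb of the genes differed between members. They held no peak in LARS, TARS and NARS, 1 each in IARS and IARS2, 2 in RARS and 3 in EPRS. Pooled over the 7 genes, the first 5 kb held 7 peaks (200 per Mb), close to the 6 (171 per Mb) in the 5 kb before the start. The next 5 kb held 19 peaks (543 per Mb) with at least 1 in each gene. At the other end the last 5 kb held 15 peaks (429 per Mb), the first 5 kb beyond it 11 (314 per Mb) the next 5 kb 6 (171 per Mb) and the 5 kb after that 10 (286 per Mb).

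Within 20 kb of the start, 60 peaks lay inside the 7 genes and 29 outside, a ratio of 2.07 (exact 95% interval 1.31 to 3.34). EPRS had 10 inside and 3 outside, TARS 9 and 2, RARS 8 and 1, and NARS 6 and 1. IARS was the exception, with 16 on each side. Within 20 kb of the end the counts were 68 inside and 34 outside, a ratio of 2 (1.31 to 3.11). The 2 counts share peaks, since RARS, TARS and NARS are under 40 kb, and all 6 peaks of NARS were counted at both ends. EPRS had 13 inside and 2 outside and LARS 10 and 2, whereas IARS2, which the RefSeq gene table places directly before RAB3GAP2, had 9 on each side and NARS had 6 inside and 7 outside.

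**Figure D4:**
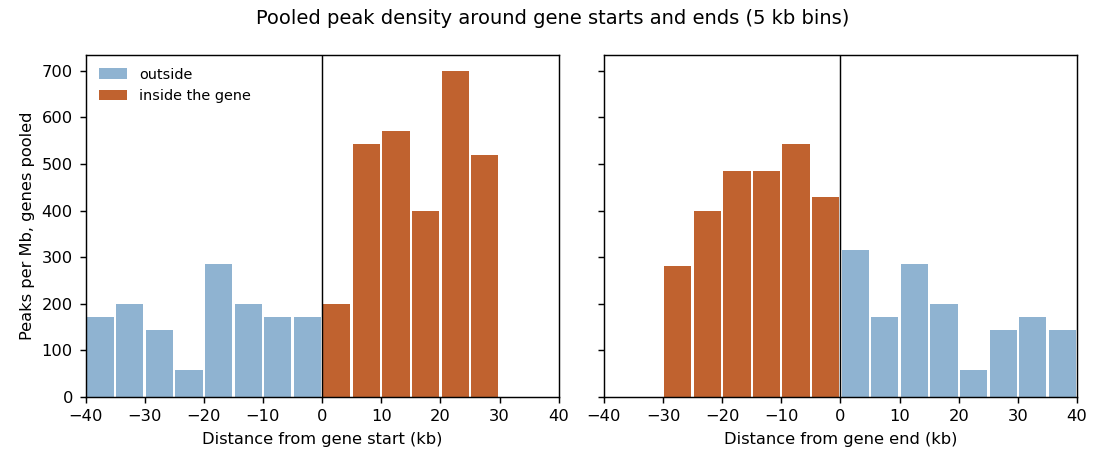
Peaks per Mb in 5 kb bins on either side of the start (left) and the end (right) of the genes, pooled over the 5 to 7 genes whose bin lies wholly inside (orange) or outside (blue). The first orange bin after the start, at 200, is level with the blue bins, the next is at 543, and the last bin inside the end is at 429, while those past it are uneven, at 314, 171, 286 and 200 in order.

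With each gene cut into 3 equal stretches from start to end, the stretches held 57, 64 and 64 peaks with median widths of 299, 289.5 and 280.5 bp. Without IARS the counts were 33, 40 and 51. The stretch nearest the end held more peaks than that nearest the start in 5 genes, as many in EPRS and fewer in IARS. Several of these differences rest on few peaks, and the matching share of other genes or windows was not computed. Pooled over all 7 genes, the stretch nearest the end held 34.6% of the peaks (27.8% to 41.9%, for counting error only). That interval includes the share of an even spread over the 3 stretches. IARS leaned toward its start, with 24, 24 and 13 peaks, and LARS toward its end, with 5, 6 and 10. IARS2 had 7, 4 and 9, TARS 2, 5 and 6, and NARS 0, 3 and 3. RARS had 4, 4 and 8 peaks, with median widths of 515.5, 424 and 279.5 bp. Its widest peak, 860 bp at chr5:167921660-167922519, lay 8.63 kb from the start. EPRS had 15, 18 and 15.

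Few peaks in these genes were listed more than once. Of the 185 peaks, 8 (4.32%) were repeated in the deposited list, against 10.1% of all distinct peaks. They lay in EPRS (2 of 48 peaks), IARS2 (4 of 20) and LARS (2 of 21), and the other 4 genes had none. The share in IARS2 alone was thus above that of all distinct peaks. The most repeated, at chr1:220292832-220293152 in IARS2, was listed 3 times and was 321 bp wide.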

How the data were processed

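Per the submitters' processing notes, BWA and the hg19 build were used. Per the file headers, the authors trimmed reads, removed duplicates and ran MACS on LSD2 with input as control (p-value cutoff 1e-05, enrichment factor 32, effective genome 2700 Mb, reads and fragments of 120 bp). No version is stated in the sources used here. What the authors deposited are peak starts and ends in bases, with no score. ChIP and input reads carry different run dates in the header, so group and run cannot be told apart.

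Starts were read as counting from 0 and are printed from 1. The 414095 lines gave 370863 distinct peaks. The searched sequence (2862 Mb) ran from first to last peak of each chromosome without peak-free stretches over 500 kb. Genes under 40 kb were set beside windows of 20 kb, the others beside windows of 50 kb, where a window share is given for a gene. Ratio intervals are exact (binomial) and density intervals exact Poisson, in Python 3.11.15 with scipy 1.17.1. They cover counting error only. The window and ratio procedures were tested on simulated data in which peaks were placed independently. Neighbouring peaks in these data are not independent, so that test cannot show that the intervals hold here. Strands came from the RefSeq promoter table, and for LARS from general knowledge. Gene names follow the older symbols, with RefSeq's (IARS1 and so on) for its sequences.

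The members and lists were chosen with earlier results of these data known. All 7 genes were named, with their widest, most repeated and start-nearest peaks. The motif, the 1.5 kb and 5 kb distances and the 3 stretches were chosen after the data were seen. Exons and introns were not analysed here.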

Additional observations from a re-analysis of the deposited data

How the results depend on the processing

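Every deposited line counted, peaks up to 100 bp apart merged, assignment by any overlap, flanks of 100 kb, flanks without the other member genes, and only peaks at least as wide as the genome median gave 37 ratios of gene to flank density, and all 37 stayed above 1. All 30 width differences under the alternatives run for them stayed above 0. Of 96 values under alternatives, 91 stayed within the interval of the reported value, although several of these moved by over 1.5 times. That interval was of counting error, except for widths, where it was the order-statistic interval of the gene's median. In NARS, with 6 peaks, the latter ran from the lowest to the highest width. The 96 include pooled values with 1 gene left out, which share most peaks with the reported value. Among peaks at least as wide as the genome median, the ratio of IARS to its flanks was 5.62, and the densities relative to the chromosome were 12.02 for IARS, 7.78 for EPRS, 6.89 for RARS and 4.88 for NARS. There the ratio to flanks was 4.87 for RARS and 4.45 for NARS, whose interval then lay above 1, so 5 genes did in place of 4. With every line counted the ratio of NARS was 1.55, against 2.42, and that of IARS was 2.92, against 3.89. In the same setting that of IARS2 rose to 1.495, against 1.25. With flanks of 100 kb the width difference of EPRS was 21 bp, against 87 bp, and with merged peaks that of IARS was 124 bp, against 76 bp. The cause was not tested. The count of 5 genes at 1.5 times their flanks also depended on the setting, since IARS2 reached 1.68 without EPRS in its flanks, and LARS reached 1.59 among the wider peaks and 1.502 with every line counted. Leaving out each gene in turn, an alternative chosen after seeing the data, gave pooled ratios of 2.85 to 3.70, and without IARS 51 of 124 peaks lay in the stretch nearest the end, against 64 of 185. No paired analysis was possible because ChIP and input had 1 library each. Depth is unknown, so a stretch without a peak cannot be told from one with too few reads.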
